A study of Mus musculus with 18 samples.

Results

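The 37 genes described here encode the extracellular matrix and the basement membrane, the enzymes that cut or crosslink them, and the inhibitors of those enzymes. They were chosen by gene symbol from a list drawn up with earlier results of these data known. All 37 were found among the 53342 genes of the mm10 table. Counts of them beside the shares of all genes therefore describe the list and test nothing about it. Their mRNA was measured by RNA-seq in 3 kinds of mouse cell: Neuro-2A, a neuroblastoma line labelled as not genetically modified; primary cultured astrocytes, labelled WT, with the strain and age of the mice not stated; and BV-2, an immortalised microglial line labelled as not genetically modified. In each kind of cell the mix arm received equal amounts of mimics of miR-140-5p, miR-99b-3p and miR-199a-3p, and the control arm received the mimic of cel-miR-67, a nematode microRNA. Both arms were transfected with the same lipid reagent at 25 nM for 24 h in medium with 10% serum (15% for astrocytes), and each arm had 3 libraries per cell type, 18 in all. The series title gives the purpose as a search for targets of the 3 microRNAs in neural cells. There were no untransfected cells, so every difference below is the mix against the control mimic.

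Collagens are trimers of α chains that are hydroxylated, trimmed and crosslinked on their way into fibrils or networks. The basement membrane is a sheet of a laminin network and a type IV collagen network, joined by nidogens and by heparan sulfate proteoglycans. In the brain it surrounds the vessels, where astrocyte endfeet contribute to it, while the matrix between neural cells is rich in hyaluronan and the lecticans that bind it. MicroRNAs lower their targets mostly by pairing of their seed, the bases from position 2 to 8, with sites in the 3′ UTR.

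The sequences of the microRNAs are shown first, since the mix was defined by them. Sites they could pair with are shown for 5 of the 9 genes that held one. Nid2, Lamc1 and Adam9 were picked because they were among the largest changes, so the 5 do not show how sites and changes go together. In the microRNAs (RefSeq, GRCm38.p6) the capitals mark the seed, and in the 30-base windows (GENCODE M21 transcripts, mm10) they mark the site. The mature miR-199a-3p lies at chr1:162217883-162217904 (+) and again at chr9:21496498-21496519 (−), and miR-99b-3p at chr17:17830232-17830253 (+).
miR-199a-3p: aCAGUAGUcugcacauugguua
miR-99b-3p: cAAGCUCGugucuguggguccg
Nid2, miR-199a-3p site at chr14:19811372-19811378 (+): cctcaatctttACTACTGtatttttaaaaa
Fn1, miR-199a-3p site at chr1:71585561-71585567 (−): gccaacgctttACTACTGtggaaagacaag
Lamc1, miR-199a-3p site at chr1:153219601-153219607 (−): tcagcaccgtgCTACTGAtgacagagggga
Loxl1, miR-99b-3p site at chr9:58287895-58287901 (−): ccaccagctctCGAGCTTtctttccgccca
Adam9, miR-99b-3p site at chr8:24950382-24950388 (−): atatctcgaagGAGCTTAcacaagaaccac
The Nid2, Fn1 and Loxl1 windows hold a 7mer-m8 site, which pairs with the whole seed, and the Lamc1 and Adam9 windows hold a 7mer-A1 site, which pairs with the seed short of its last base and is followed by an A. Both seeds differ, so the 2 microRNAs shared no site. Sites of miR-140-5p were not analysed here.

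Libraries held 20909429 to 23558161 counts in Neuro-2A, 21790634 to 27890926 in astrocytes and 18547354 to 25633661 in BV-2. In astrocytes the 37 genes took 1.691% to 1.731% of all counts in the mix arm and 1.628% to 1.646% in the control arm. Their share was 0.335% to 0.396% in the mix arm and 0.407% to 0.459% in the control arm of Neuro-2A, and 0.044% to 0.050% in BV-2. Each cell type carried its own defining markers: the 8 astrocyte markers summed to 7295 to 7908 TPM in the mix arm and 9082 to 9596 TPM in the control arm of astrocytes, the 7 neuronal markers to 861 to 960 and 1059 to 1311 TPM in Neuro-2A, and the 8 microglial markers to 3357 to 3462 and 3133 to 3487 TPM in BV-2. The astrocyte cultures also held microglial markers (531 to 729 TPM in the mix arm and 530 to 599 TPM in the control arm) and fibroblast and pericyte markers, which are given with the collagens below, and sums of 291 to 295 TPM in the mix arm and 276 to 285 TPM in the control arm for neuronal, 1038 to 1101 and 1081 to 1099.9 TPM for oligodendrocyte and 834 to 949 and 904 to 977 TPM for ependymal markers. TPM is a transcript level scaled for gene length and for library depth. The authors set every TPM of 1 or less to the same value, and a gene is said to be at the floor where it lies there. Fold changes are log2 of mix over control on the scale of TMM-scaled counts, from the quasi-likelihood test of edgeR, and p-values were adjusted over all tested genes by the Benjamini-Hochberg method. A gene was called where its adjusted p was under 0.05. Replicates are libraries, and whether they came from separate cultures is not stated, so the p-values measure the spread of these libraries, and that spread may be technical.

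Without the mix, the matrix genes stood highest in astrocytes. In control libraries of astrocytes Sparc, a collagen-binding glycoprotein, was highest at 2356 ± 21.4 TPM (SD, n = 3), followed by the lectican neurocan (Ncan, 847 ± 27 TPM), fibronectin (Fn1, 838 ± 24.3 TPM) and the metalloprotease inhibitor Timp2 (785 ± 7.84 TPM). Ncan and Fn1 differed by less than their spread. In Neuro-2A control libraries Fn1 (293 ± 16.8 TPM) and the type IV collagen gene Col4a2 (284 ± 41.9 TPM) led and were not separated by their spread. They were followed by the membrane-anchored protease Adam9 (189 ± 5.72 TPM), Col4a1 (171 ± 15.7 TPM) and the laminin γ1 gene Lamc1 (167 ± 11.6 TPM), of which Col4a1 and Lamc1 again differed by less than their spread.

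BV-2 carried few of these genes. In its control libraries Lamc1 stood at 96.7 ± 10.6 TPM, Adam9 at 78.2 ± 9.08 TPM, Timp2 at 43.7 ± 4.24 TPM, agrin (Agrn), a heparan sulfate proteoglycan of basement membranes, at 5.74 ± 0.433 TPM and Col4a2 at 2.05 ± 0.464 TPM. The other 32 genes were at the floor in all 6 BV-2 libraries. In Neuro-2A 15 were at the floor in all 6 libraries, among them every fibrillar collagen except Col1a1, which reached at most 1.28 TPM, both crosslinking oxidases (Lox and Loxl1) and both matrix metalloproteases (Mmp2 and Mmp14). In astrocytes none was at the floor throughout, and periostin (Postn) was there in 4 of 6 libraries.

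In a fit of the 9 control libraries, 33 of the 37 genes were higher and 4 lower in astrocytes than in Neuro-2A (86.9% of all 19570 tested genes differed, 49.1% higher and 37.8% lower). The 4 that were lower in astrocytes were Col4a2, with a log2 difference of −1.70 ± 0.122 (SE, adjusted p = 2.75e-08), Lama4, a laminin α chain of vessels and peripheral nerve (−3.12, SE 0.291, adjusted p = 3.75e-07), Adam12, a membrane-anchored metalloprotease (−0.49, SE 0.0773, adjusted p = 5.72e-05) and Adam9 (−0.16, SE 0.0698, adjusted p = 0.0417). Col4a1, the partner chain of Col4a2, was higher in astrocytes by 0.44 ± 0.0699 (SE, adjusted p = 5.95e-05). All 37 were higher in astrocytes than in BV-2 (86.4% of all genes differed and 49.7% were higher; 0 were lower by edgeR's adjusted or unadjusted p, and 0 by DESeq2), the least so Adam9 (0.97, SE 0.0711, adjusted p = 3.09e-08) and Lamc1 (1.39, SE 0.0751, adjusted p = 1.33e-09). Between Neuro-2A and BV-2, 24 were higher and 1 lower in Neuro-2A (42.8% and 35.5% of all genes, 78.3% in all). The gene that was lower in Neuro-2A was Timp2 (−0.43, SE 0.142, adjusted p = 0.0137). Of the 37 genes 12 passed the count filter only through astrocytes, so these counts describe the list and test nothing about it.

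**Figure D1:**
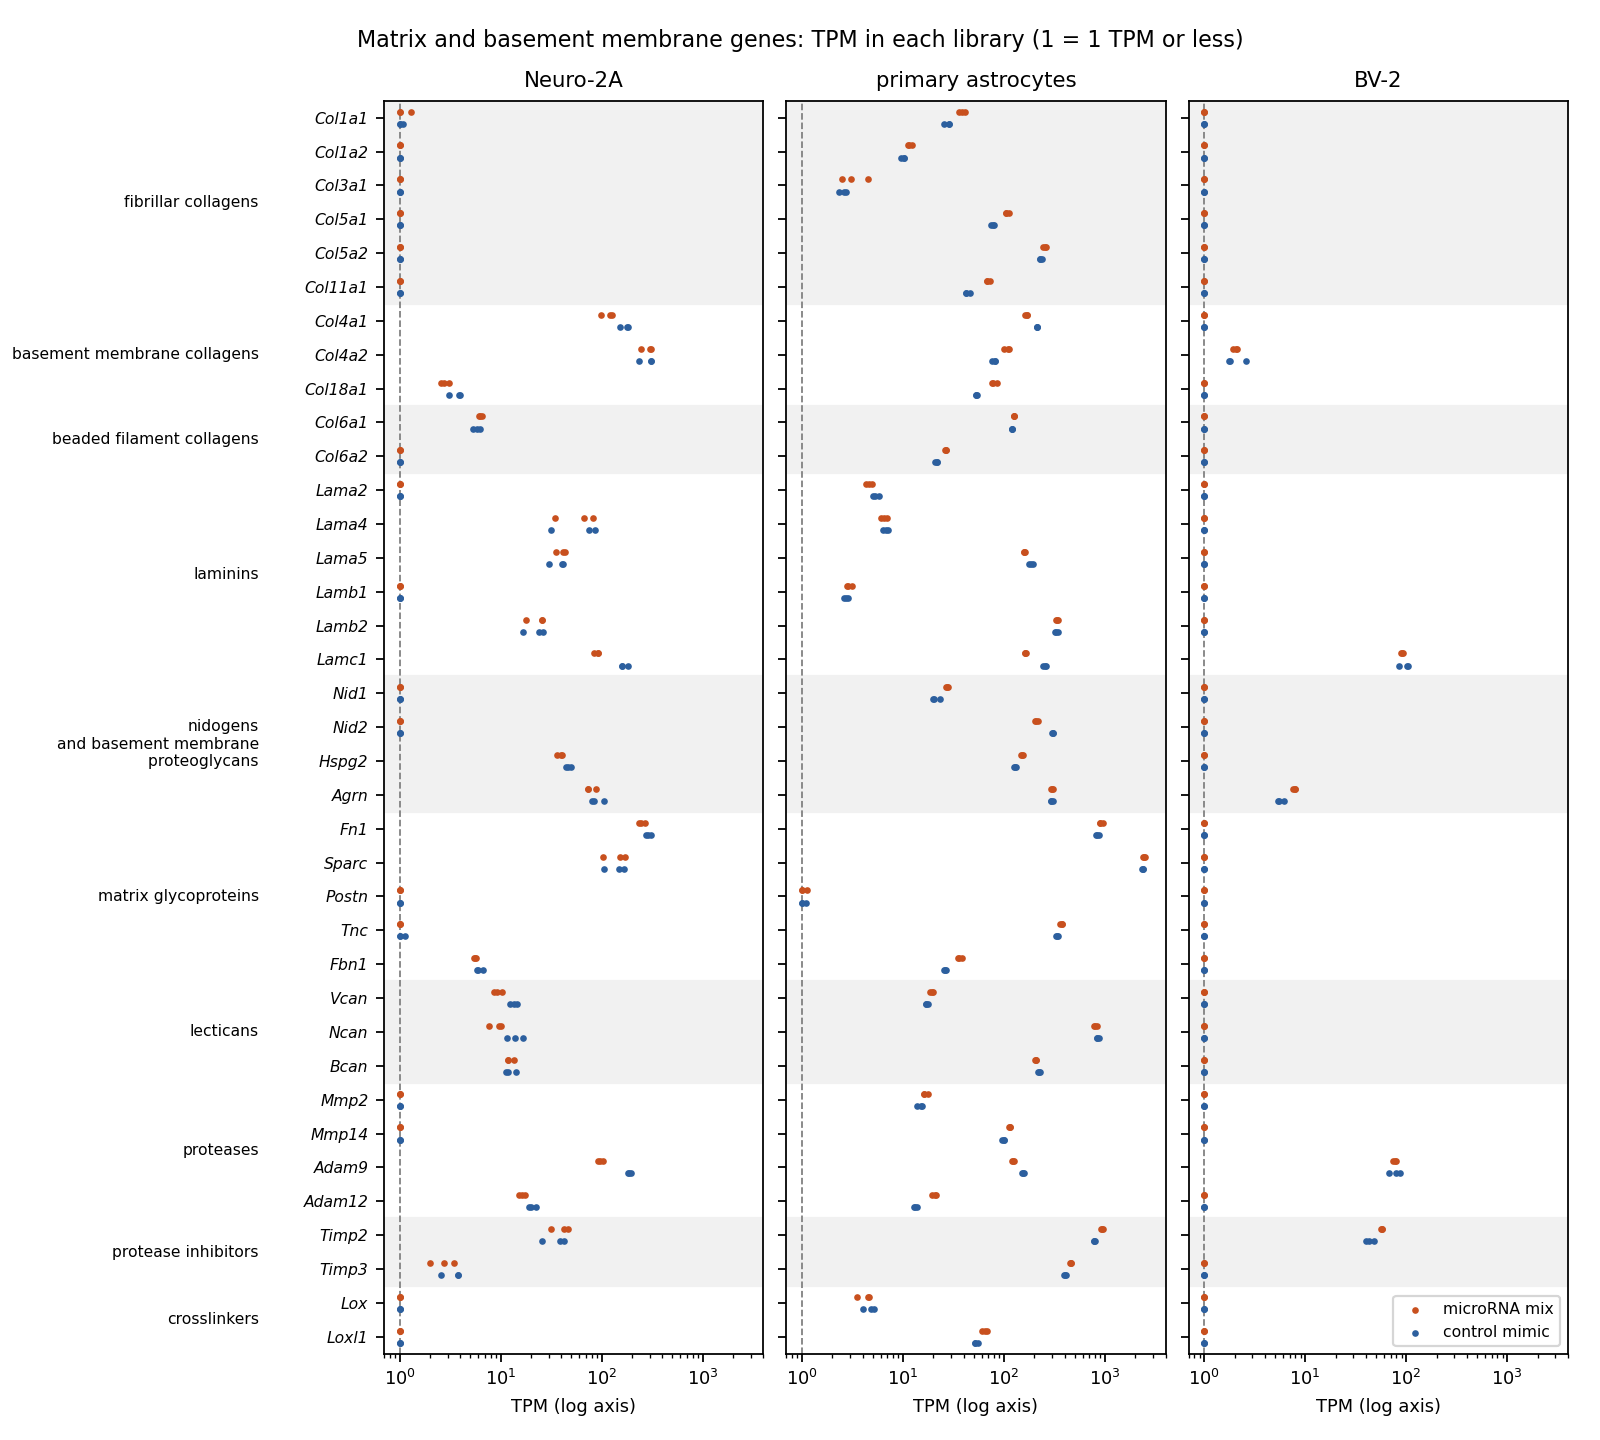
TPM of the 37 genes on a log axis in Neuro-2A, primary astrocytes and BV-2, 1 point per library, with the microRNA mix above the control mimic in each row and the genes in role groups. The dashed line at 1 marks values of 1 TPM or less, where 32 of the genes lie in all 6 BV-2 libraries and 15 in all 6 Neuro-2A libraries; Sparc is highest in astrocytes.

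In Neuro-2A the matrix genes called in the main fit, which left out the replicate numbers, were lower with the mix. With the numbers as a block, given below, 2 genes were higher. Of the 25 tested genes 7 fell and 0 rose, beside 7.88% of all 16160 tested genes lower and 5.01% higher (12.9% called in all). The 7 were Adam9, Lamc1, Ncan, Col4a1, the lectican versican (Vcan), Adam12 and perlecan (Hspg2), the large heparan sulfate proteoglycan of basement membranes. The median log2 fold change was −0.19 over the 25 genes and 0.01 over all genes. At an unadjusted p under 0.05 edgeR had 10 lower and 0 higher, and DESeq2 called 8 lower and 0 higher. In bulk RNA fewer cells of a type and less RNA per cell cannot be told apart.

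Lamc1, which encodes the γ1 chain found in most laminin trimers (chr1:153218922-153332786), stood at 91.7, 84.9 and 92.2 TPM in the mix libraries, against 180.3, 161 and 159.9 TPM in the control libraries. The arms did not overlap, and the log2 fold change was −0.88 ± 0.0628 (SE, adjusted p = 0.000446). Adam9, which encodes a metalloprotease that sheds surface proteins (chr8:24949611-25016927), stood at 91.3, 96.9 and 103 TPM in the mix libraries, against 184, 188 and 195 TPM in the control libraries, a change of −0.94 ± 0.059 (SE, adjusted p = 0.000295). Every mix library of both genes lay below every control library, and both calls held when any 1 library was left out. Of the other laminins, the α chains Lama4 and Lama5 and the β chain Lamb2 were not called (−0.05, 0.11 and 0.06), and Lama2 was at the floor.

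Col4a1 (chr8:11198423-11312826) stood at 98.2, 120.4 and 127 TPM in the mix libraries, against 153, 182 and 179 TPM in the control libraries, and fell by 0.55 on the log2 scale (−0.55 ± 0.107, adjusted p = 0.0146 in edgeR's test). Its arms did not overlap. Col4a2, whose chains assemble with those of Col4a1 into type IV collagen, stood at 243, 300.5 and 311 TPM in the mix libraries, against 236, 308 and 309 TPM in the control libraries, with a log2 fold change of 0.02 ± 0.127 (SE, adjusted p = 0.94). Its arms overlapped almost fully, with library 1 lowest in both. The third basement membrane collagen, Col18a1, the source of endostatin, was at 2.81 ± 0.265 TPM in mix libraries, against 3.66 ± 0.494 TPM in control libraries, with −0.36 ± 0.13 (SE, adjusted p = 0.116). Hspg2 stood at 40.1, 36.2 and 39.9 TPM in the mix libraries, against 50.3, 44.3 and 46.7 TPM in the control libraries, with −0.26 ± 0.0642 (SE, adjusted p = 0.0345) and no overlap.

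The lecticans are chondroitin sulfate proteoglycans that bind hyaluronan in brain matrix. Ncan stood at 10.1, 7.65 and 9.63 TPM in the mix libraries, against 16.7, 11.5 and 13.8 TPM in the control libraries (−0.60, SE 0.152, adjusted p = 0.0402), and Vcan at 8.65, 9.14 and 10.3 TPM in the mix libraries, against 12.2, 13.6 and 14.6 TPM in the control libraries (−0.51, SE 0.0899, adjusted p = 0.0107). Neither overlapped. Brevican (Bcan) was not called at 12.4 ± 0.935 TPM in mix libraries, against 12.4 ± 1.45 TPM in control libraries (0.02). Adam12 stood at 16.1, 15.2 and 17.3 TPM in the mix libraries, against 22.2, 19.3 and 20 TPM in the control libraries, a smaller difference of −0.32 ± 0.072 (SE, adjusted p = 0.0257), again without overlap.

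Fn1, a glycoprotein that bridges cells and collagen, stood at 236, 247 and 268 TPM in the mix libraries, against 278, 291 and 311 TPM in the control libraries. The arms did not overlap, but the change of −0.21 ± 0.0648 (SE, adjusted p = 0.0763) missed the threshold. Fibrillin-1 (Fbn1), the main protein of microfibrils, was at 5.57 ± 0.113 TPM in mix libraries, against 6.16 ± 0.469 TPM in control libraries and was also not called (−0.13, adjusted p = 0.327 by edgeR). In all, 9 of the 25 tested genes did not overlap between the arms, beside 32.5% of all tested genes. Sparc, Agrn, Timp2, Timp3, Col6a1, Tnc, Nid1, Col1a1 and Col1a2 were tested and not called, with log2 fold changes of −0.73 (Nid1, at the floor) to 0.18 (Col1a1 and Timp2), and 12 genes were too low to test.

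The libraries numbered 1 stood apart in both arms of Neuro-2A. Lama4 was at 34.3, 81.8 and 66.7 TPM in the mix libraries, against 31.2, 86.2 and 74.8 TPM in the control libraries, and Sparc at 102, 150.2 and 172 TPM in the mix libraries, against 104, 150.1 and 166 TPM in the control libraries, so that number 1 was lowest in each arm. With the replicate number as a block, 12 genes were lower and 2 higher (19.5% and 18.2% of all genes, 37.8% in all). The block kept the 7 calls and added as lower Fn1 (−0.21 ± 0.0271, adjusted p = 4.3e-05), Agrn (−0.18 ± 0.0323, adjusted p = 0.000546), Col18a1 (−0.36 ± 0.088, adjusted p = 0.00543), Timp3 (−0.29 ± 0.0884, adjusted p = 0.0191) and Nid1 (−0.73 ± 0.256, adjusted p = 0.0384). It added as higher Timp2 (0.19 ± 0.0477, adjusted p = 0.00693) and Lama5 (0.11 ± 0.0411, adjusted p = 0.0451), all by edgeR's test. With the numbers 2 and 3 alone 10 genes were lower and 0 higher, a count without a share of all genes beside it. Leaving out mix replicate 1, 2 or 3 left 4 calls and leaving out control replicate 3 left 3, with Ncan, Adam12, Hspg2 and, without control replicate 2 or 3, Col4a1 among those lost. Of the 7 neuronal markers, whose sums are given above, 4 were lower in the main fit, beside 7.88% of all genes. Of the 6 tested fibroblast and pericyte markers 2 (Rgs5 and Pdgfra) were lower, while 8 of 12 were at the floor. The part of these markers in the matrix changes was not tested.

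In astrocytes the matrix genes moved both ways. Of the 37 genes 16 rose and 8 fell, beside 19.7% of all 17770 tested genes higher and 20.6% lower (40.2% called in all). Col11a1, a fibrillar collagen gene, Adam12 and Col18a1 had the largest rises, and Lamc1 and nidogen-2 (Nid2) the largest falls. The median log2 fold change was 0.07 over the 37 genes and 0.01 over all genes. On the authors' TPM scale, tested with limma, 20 were higher and 6 lower, so the higher share was 76.9% of the called genes in place of 66.7%. The median of all genes was also higher on that scale, at 0.05 in place of 0.01. The share of all genes called by limma is not given here, so the higher share is not particular to the 37 genes. Between the arms 29 genes did not overlap, beside 52.4% of all genes.

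Fibrillar collagens form the banded fibrils of connective tissue, and type V and XI chains set the width of type I fibrils. Col11a1 (chr3:114030540-114220718) stood at 72.3, 67.3 and 68.7 TPM in the mix libraries, against 45.7, 42.5 and 42.5 TPM in the control libraries, a rise of 0.61 ± 0.0392 (SE, adjusted p = 1.21e-07). Col1a1, the α1 chain of type I collagen (chr11:94936224-94953042), stood at 41.5, 36.3 and 38.7 TPM in the mix libraries, against 28.3, 25.3 and 28.7 TPM in the control libraries, a rise of 0.44 ± 0.057 (SE, adjusted p = 5.78e-05). Neither overlapped. Col5a1 was at 107 ± 3.56 TPM in mix libraries, against 77.9 ± 2.31 TPM in control libraries (0.40, adjusted p = 3.15e-06 by edgeR) and Col1a2 at 11.7 ± 0.542 TPM in mix libraries, against 10.1 ± 0.382 TPM in control libraries (0.15, adjusted p = 0.0231 by edgeR).

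Col5a2 and Col3a1 were not called (log2 fold changes 0.07 and 0.32). Thus 4 of 6 fibrillar collagens rose and 0 fell, beside 19.7% and 20.6% of all genes, with 5 higher and 0 lower at an unadjusted p under 0.05 and 3 and 0 by DESeq2. Of the type VI genes, whose chains form beaded filaments, Col6a2 rose by 0.24 ± 0.0364 (SE, adjusted p = 0.000184 by edgeR) and Col6a1 was not called on the TMM scale (0.00), although its TPM did not overlap at 126 ± 0.287 TPM in mix libraries, against 121 ± 0.822 TPM in control libraries. Of the crosslinking oxidases that act on collagen and elastin, Loxl1 rose to 65 ± 3.44 TPM in mix libraries, against 53.1 ± 2.01 TPM in control libraries (0.23, adjusted p = 0.00195 by edgeR) and Lox was not called (4.24 ± 0.604 TPM in mix libraries, against 4.67 ± 0.571 TPM in control libraries).

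Fibroblasts and pericytes express many of these collagens, so their markers are given beside them. Of 12 such markers 10 were tested, 6 fell and 0 rose, beside 20.6% and 19.7% of all genes. The counts were also 6 and 0 at an unadjusted p under 0.05 and by DESeq2. Fap, Abcc9 and Lum were at the floor in all 6 libraries. The summed level of the 12 markers was 2476 to 2925 TPM in the mix arm and 3272 to 3656 TPM in the control arm. Most of it came from smooth muscle actin, Acta2, at 1267 ± 124 TPM in mix libraries, against 1733 ± 108 TPM in control libraries (−0.51), and from Tagln at 1250.2 ± 94.3 TPM in mix libraries, against 1579 ± 98.9 TPM in control libraries (−0.40). Dcn, Twist1 and Pdgfrb were not called, with log2 fold changes above 0 (0.66, 0.26 and 0.04). Dcn was at the floor in 5 of 6 libraries, Twist1 at 3.48 ± 0.649 TPM in mix libraries, against 2.77 ± 0.225 TPM in control libraries, and Pdgfrb at 24.4 ± 0.348 TPM in mix libraries, against 22.8 ± 0.291 TPM in control libraries; the arms of Twist1 and Pdgfrb did not overlap. Of the 8 astrocyte markers 5 fell and 0 rose, beside the same 20.6% and 19.7% of all genes (8 and 0 at an unadjusted p under 0.05, 6 and 0 by DESeq2). The part of these markers in the collagen changes was not tested.

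**Figure D2:**
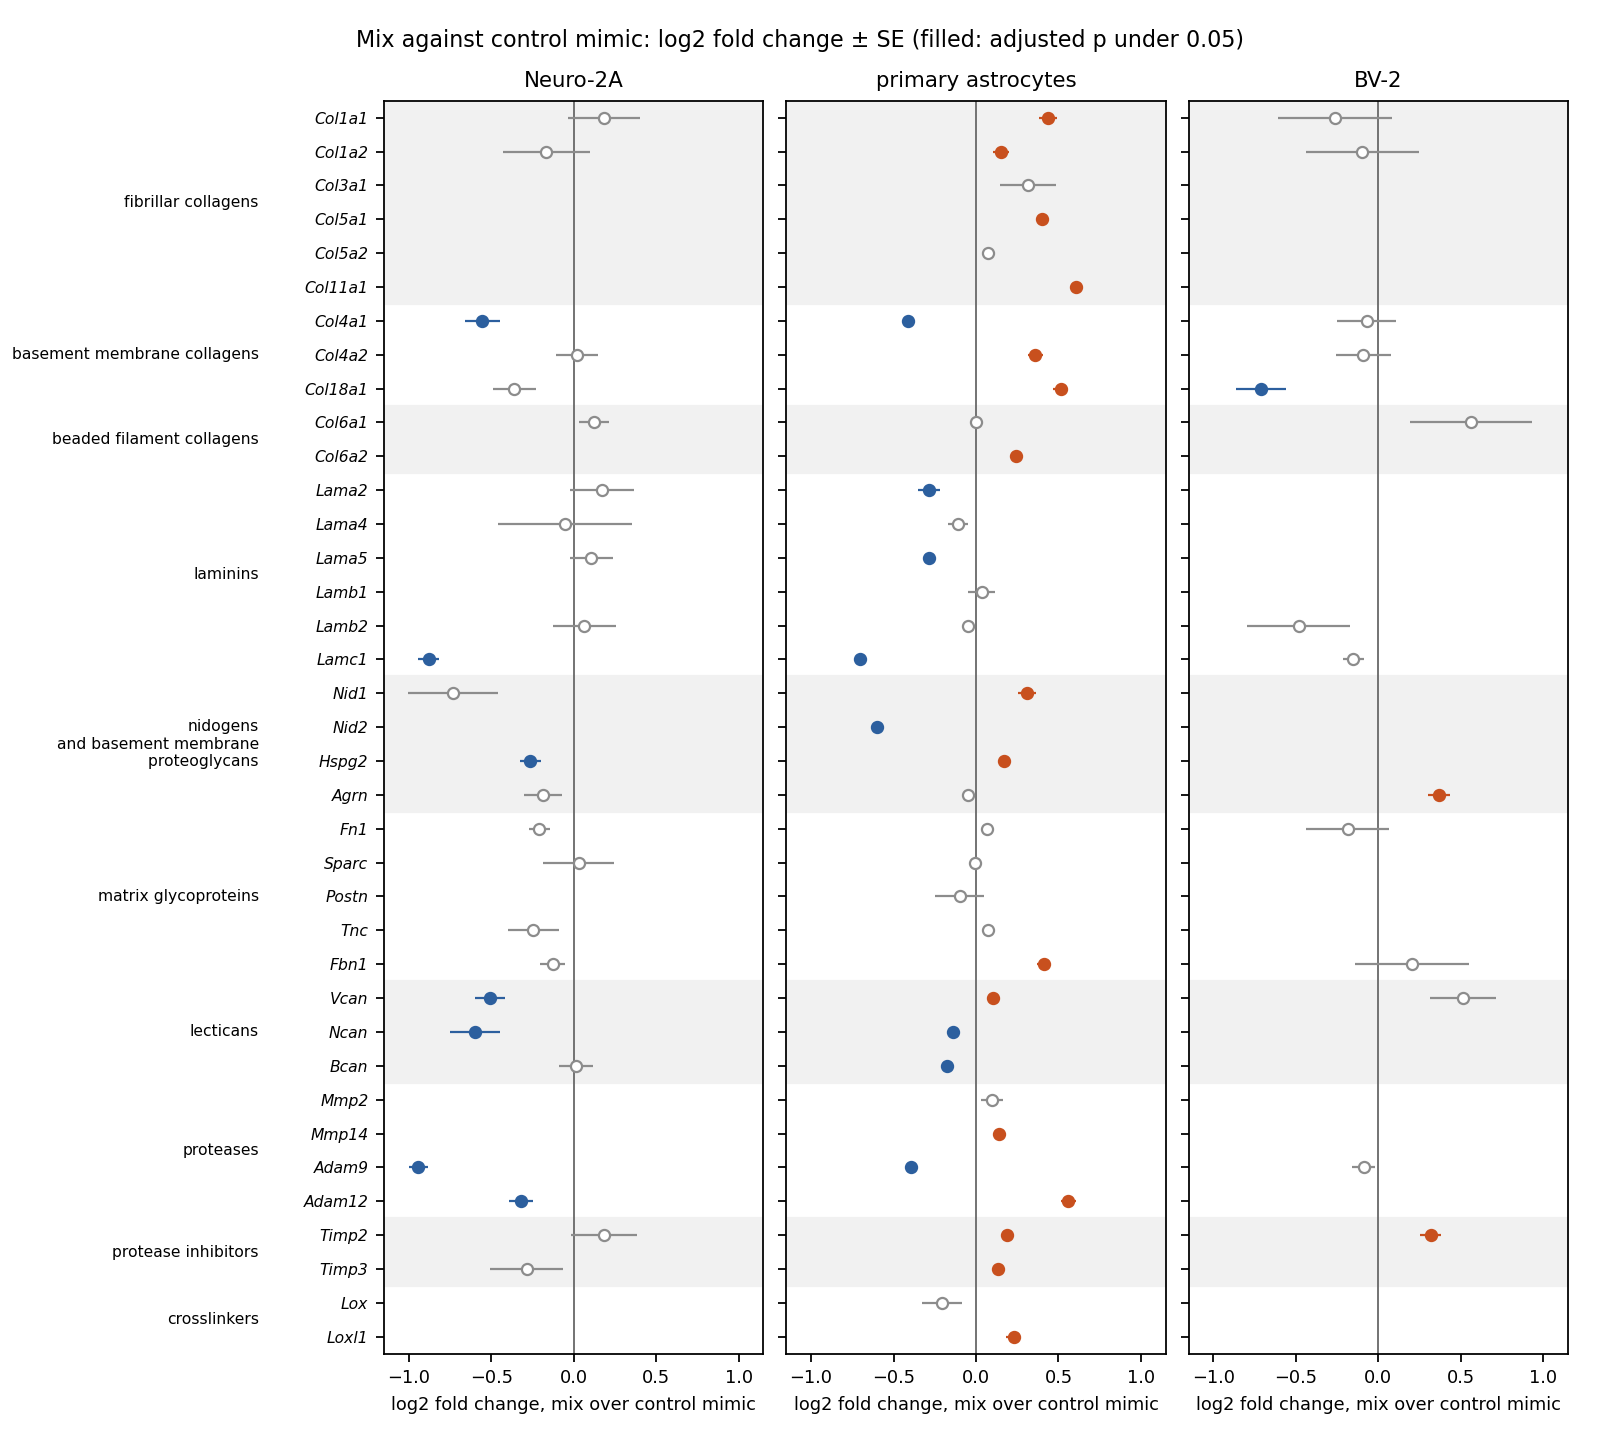
Log2 fold change of the mix over the control mimic (points) with its SE (bars) for each tested gene in Neuro-2A, primary astrocytes and BV-2, in role groups. Filled points have an adjusted p under 0.05 (orange higher, blue lower): 7 lower in Neuro-2A, 16 higher and 8 lower in astrocytes, and 2 higher and 1 lower in BV-2.

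The basement membrane genes of astrocytes split within families. Lamc1 stood at 163, 166 and 162 TPM in the mix libraries, against 262, 257 and 246 TPM in the control libraries, a fall of 0.70 on the log2 scale (−0.70 ± 0.0326, adjusted p = 8.01e-09 by edgeR). Nid2, which links laminin to type IV collagen (chr14:19751265-19811787), stood at 203, 208 and 216 TPM in the mix libraries, against 301, 307 and 304 TPM in the control libraries, with −0.60 ± 0.0335 (SE, adjusted p = 3.37e-08). In both, all 3 mix libraries lay far below the control libraries. The related nidogen-1 gene (Nid1) rose to 27.3 ± 0.514 TPM in mix libraries, against 21.1 ± 1.89 TPM in control libraries (0.31, adjusted p = 0.000725 by edgeR).

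Col4a1 stood at 168, 161 and 171 TPM in the mix libraries, against 211, 213 and 212 TPM in the control libraries (−0.41, SE 0.033, adjusted p = 8.34e-07), while Col4a2 stood at 109, 101 and 111 TPM in the mix libraries, against 81.7, 77.1 and 80.8 TPM in the control libraries (0.36, SE 0.0428, adjusted p = 2.56e-05). The 2 genes lie head to head on chromosome 8, overlapping by 22 bases, and neither overlapped between the arms. Col18a1 (chr10:77052178-77166548) stood at 78, 75.7 and 85 TPM in the mix libraries, against 52.4, 54.4 and 53.4 TPM in the control libraries, a rise of 0.51 ± 0.0443 (SE, adjusted p = 1.58e-06). Its locus shares 8825 bases with Slc19a1 on the other strand, which was at 6.09 ± 0.504 TPM in mix and 6.38 ± 0.757 TPM in control libraries and was not called. Whether counting used strand is not given in the sources used here, and Nid2 likewise shares 437 bases with Rtraf, which was not called either (−0.06).

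Of the 6 laminins 3 fell and 0 rose, beside 20.6% and 19.7% of all genes (the same counts by unadjusted p and by DESeq2). Besides Lamc1 these were the α chains Lama5, at 159 ± 1.96 TPM in mix libraries, against 186 ± 7.62 TPM in control libraries (−0.28), and Lama2, the chain lost in a congenital muscular dystrophy, at 4.61 ± 0.306 TPM in mix libraries, against 5.37 ± 0.39 TPM in control libraries (−0.28). Lama2 was not called by limma on TPM (−0.18 ± 0.0637, adjusted p = 0.0756) or in the fit of all 18 libraries (−0.27 ± 0.0978, adjusted p = 0.051), which left 2 of 6. The β chain Lamb2, the most abundant laminin of these cells, was not called at 334 ± 5.62 TPM in mix libraries, against 332 ± 9.91 TPM in control libraries (−0.05), nor were Lama4 (−0.11) and Lamb1 (0.03). Of the proteoglycans, Hspg2 rose by 0.17, at 151 ± 3.22 TPM in mix libraries, against 129 ± 3.71 TPM in control libraries, and Agrn was not called (−0.05).

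Among glycoproteins only Fbn1 was called in the main test. It stood at 38.2, 35.7 and 35.1 TPM in the mix libraries, against 26.8, 26.2 and 25.6 TPM in the control libraries, a rise of 0.41 ± 0.0375 (SE, adjusted p = 2.64e-06) without overlap. The most abundant genes were not called: Sparc was at 2409, 2454 and 2485 TPM in the mix libraries, against 2355, 2336 and 2378 TPM in the control libraries (−0.01) and Fn1 at 952, 898 and 899.9 TPM in the mix libraries, against 865, 831 and 818 TPM in the control libraries (0.07). Neither pair of arms overlapped in TPM. By limma on log2(TPM + 1) Sparc was not called either (0.06 ± 0.0294, adjusted p = 0.198) and Fn1 was (0.13 ± 0.0349, adjusted p = 0.0387). After TMM scaling the median of all genes was 0.01, against 0.05 on the TPM scale. Tenascin C (Tnc), an anti-adhesive glycoprotein, was at 368 ± 11.2 TPM in mix libraries, against 335 ± 9.65 TPM in control libraries (0.07), and Postn, which binds collagen and tenascin, was not called near the floor (−0.10). With the replicate block Fn1 (0.07 ± 0.019, adjusted p = 0.0101), Tnc (0.07 ± 0.0209, adjusted p = 0.00919) and Col5a2 (0.07 ± 0.0216, adjusted p = 0.0135) were also called higher by edgeR, which gave 19 higher and 8 lower beside 22.8% and 23.4% of all genes (46.2% in all).

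All 3 lecticans were called in the main fit of astrocytes, with changes under 0.2 on the log2 scale. In the fit of all 18 libraries none of them was called (adjusted p by edgeR 0.0664 for Bcan, 0.35 for Ncan and 0.329 for Vcan). By limma on TPM Bcan and Vcan were called and Ncan was not (−0.07 ± 0.0364, adjusted p = 0.173). Ncan stood at 836, 788 and 790.4 TPM in the mix libraries, against 878, 838 and 826 TPM in the control libraries, a fall of 0.14 on the log2 scale (adjusted p = 0.00638 by edgeR), and it was the only called gene of the 24 whose arms overlapped. Bcan fell by 0.18 (204 ± 2.46 TPM in mix libraries, against 221 ± 5.34 TPM in control libraries). Vcan rose by 0.10 (19.2 ± 0.653 TPM in mix libraries, against 17.1 ± 0.442 TPM in control libraries, adjusted p = 0.0435 by edgeR).

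The proteases and their inhibitors differed by gene. Adam12 (chr7:133883199-134232146) stood at 21.2, 19.2 and 21 TPM in the mix libraries, against 13.8, 13.1 and 13 TPM in the control libraries, a rise of 0.56 ± 0.0474 (SE, adjusted p = 1.35e-06), whereas Adam9 stood at 125, 119 and 123 TPM in the mix libraries, against 156, 150.0 and 155 TPM in the control libraries, with −0.39 ± 0.0337 (SE, adjusted p = 1.53e-06). Both were free of overlap. Mmp14, the membrane-bound protease that activates pro-MMP-2 together with TIMP-2, rose by 0.14 (113 ± 1.2 TPM in mix libraries, against 98.5 ± 2.03 TPM in control libraries), and its substrate Mmp2 was not called (16.6 ± 0.859 TPM in mix libraries, against 14.8 ± 0.87 TPM in control libraries). Timp2 stood at 923, 955 and 926 TPM in the mix libraries, against 777, 793 and 786 TPM in the control libraries, a rise of 0.19 ± 0.0292 (SE, adjusted p = 0.000237), and Timp3, which is held in the matrix, was at 458 ± 4.56 TPM in mix libraries, against 400.2 ± 7.42 TPM in control libraries (0.13). The 24 calls became 22 to 25 when single libraries were left out, and 15 (10 higher and 5 lower) in a fit of all 18 libraries. No shares of all genes are given for these fits.

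**Figure D3:**
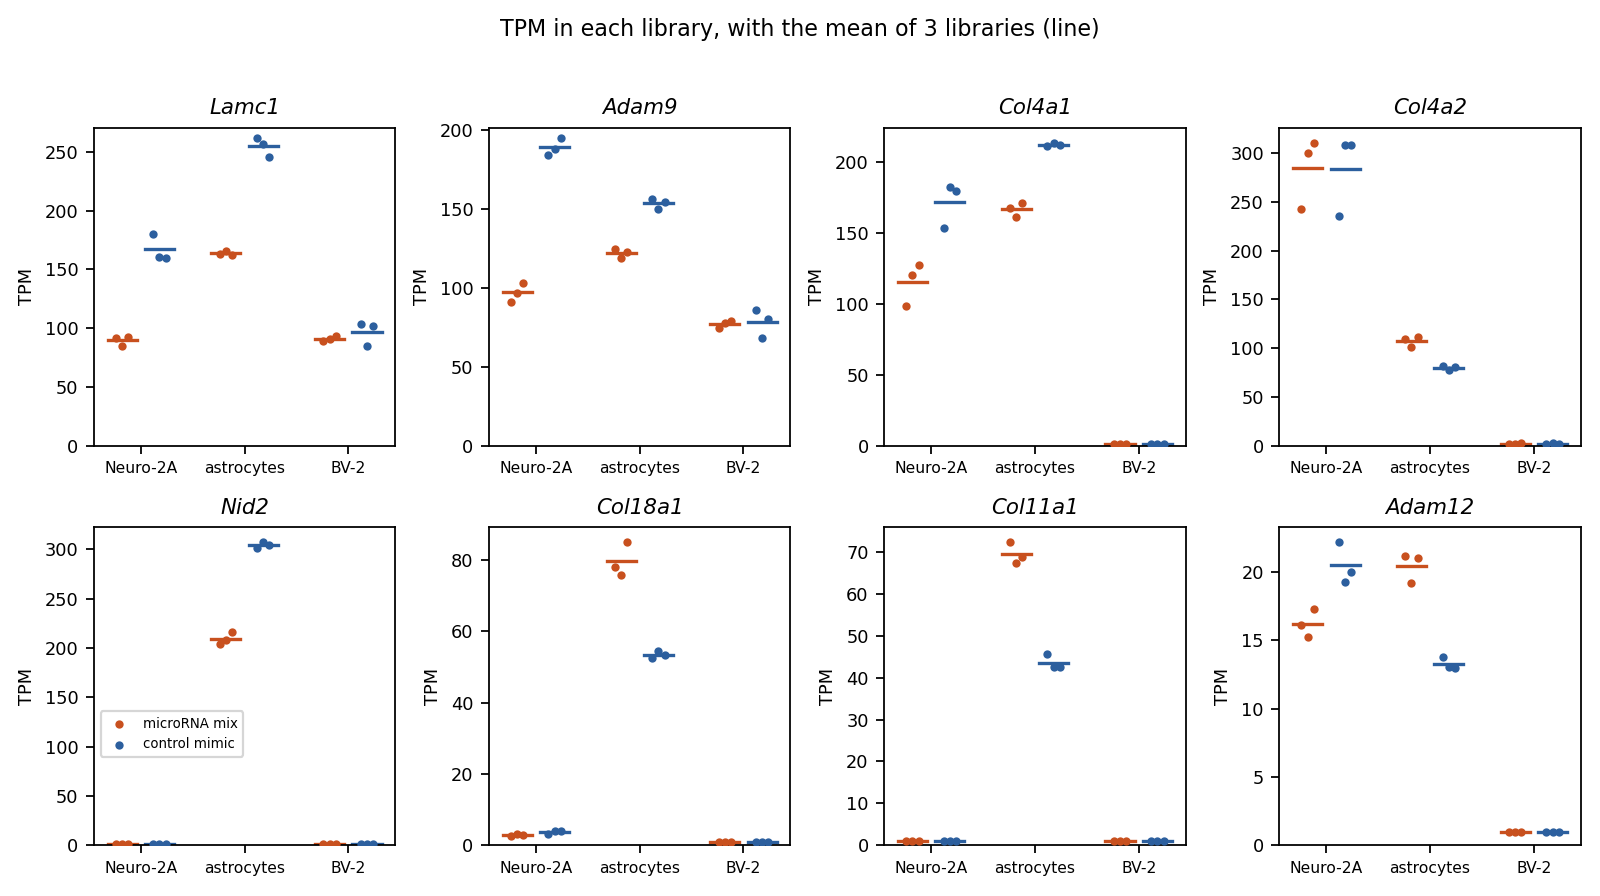
TPM of 8 of the genes in each library (points, mix left of control) with the mean of 3 libraries (line), on linear axes from 0, in Neuro-2A, astrocytes and BV-2; values of 1 TPM or less are drawn at 1. Lamc1, Adam9 and Col4a1 are lower with the mix in Neuro-2A and astrocytes, Adam12 is lower in Neuro-2A and higher in astrocytes, and Lamc1 and Adam9 overlap between the arms in BV-2.

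In BV-2 few matrix genes were high enough to test and few changed. Of 14 tested genes 2 rose and 1 fell, beside 4.61% of all 14961 tested genes higher and 5.41% lower (10.0% called in all), and the median log2 fold change was −0.09 against 0.00 for all genes. Agrn stood at 7.59, 7.87 and 7.86 TPM in the mix libraries, against 6.24, 5.44 and 5.56 TPM in the control libraries, a rise of 0.37 ± 0.0682 (SE, adjusted p = 0.0113). Timp2 stood at 57.3, 56.1 and 57.6 TPM in the mix libraries, against 48.3, 40.1 and 42.6 TPM in the control libraries, a rise of 0.32 ± 0.0652 (SE, adjusted p = 0.0178). Neither overlapped, and they were the 2 of 14 that did not, beside 32.8% of all genes.

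Col18a1 was at the floor in all 6 BV-2 libraries, with a mean of 28.2 counts in mix and 39.9 counts in control libraries. Its log2 fold change was −0.71 ± 0.151 (SE, adjusted p = 0.0198 by edgeR). Slc19a1, which overlaps it on the other strand, held a mean of 1142 counts in mix and 898 counts in control libraries (0.12, not called). Lamc1, the most abundant of the genes in BV-2, stood at 89.4, 90.8 and 93.2 TPM in the mix libraries, against 104, 84.5 and 102 TPM in the control libraries (−0.15, SE 0.0654, adjusted p = 0.189), and Adam9 at 74.5, 77.5 and 78.9 TPM in the mix libraries, against 86.2, 68.3 and 80.1 TPM in the control libraries (−0.09, SE 0.0706, adjusted p = 0.499). In both the control arm spread more widely and enclosed the mix arm. The other 9 tested genes were Col1a1, Col1a2, Col4a1, Col4a2, Col6a1, Fn1, Lamb2, Vcan and Fbn1, of which all but Col4a2 were at the floor. The 3 calls rested on few libraries: without mix replicate 1, 2 or 3 there were 0 by edgeR (5, 3 and 4 at an unadjusted p under 0.05), and without control replicate 2 there were 5; DESeq2 on all 6 libraries called 2 higher and 0 lower.

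The effect of the mix differed between cell types for some of the genes. In a fit of all 18 libraries, the effect in astrocytes was higher than in Neuro-2A for 7 of the 37 genes and lower for 0 (2.82% and 1.86% of all 20308 genes, 4.68% in all). At an unadjusted p under 0.05 these were 12 and 2, and DESeq2 called 9 and 0. The 7 were Adam12, Col18a1, Adam9, Vcan (0.61, SE 0.106, adjusted p = 0.00231), Hspg2 (0.44, SE 0.0777, adjusted p = 0.00261), Fbn1 (0.54, SE 0.1, adjusted p = 0.00329) and Nid1 (1.05, SE 0.267, adjusted p = 0.0284), of which Nid1 was at the floor in Neuro-2A. The difference for Adam12 was 0.89 ± 0.0957 (SE, adjusted p = 0.000119 by edgeR): it fell in Neuro-2A and rose in astrocytes, as did Hspg2. Vcan did so in the main fit of each cell type. Adam9 fell in both, and its fall was larger in Neuro-2A.

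Against BV-2, the effect in astrocytes was lower for Lamc1 and Adam9 and higher for Col18a1 (2 and 1 genes, beside 3.5% and 3.55% of all genes, 7.05% in all). The effect in Neuro-2A was lower than in BV-2 for 4 genes, Adam9, Lamc1, Vcan and Agrn (−0.55, SE 0.126, adjusted p = 0.0219), and higher for 0 (2.06% and 1.45% of all genes, 3.51% in all; 5 lower and 1 higher at an unadjusted p under 0.05, 4 and 0 by DESeq2). The fall of Lamc1 in astrocytes differed from the change in BV-2 by −0.54 ± 0.0818 (SE, adjusted p = 0.000461), and that in Neuro-2A by −0.72 ± 0.0821 (SE, adjusted p = 8.38e-05). For Lamc1 the astrocyte and Neuro-2A effects were not shown to differ (0.18, SE 0.0816, adjusted p = 0.27), nor for Col4a1 (0.15, SE 0.109, adjusted p = 0.597). With the replicate block the astrocyte effect differed from that of Neuro-2A for 12 genes (11 higher and 1 lower, beside 5.75% and 4.01% of all genes) and from that of BV-2 for 5 (2 higher and 3 lower, beside 6.95% and 6.07%). Without BV-2 control replicate 1 the astrocyte effect also differed from that of BV-2 for 5 genes. The difference of Adam9 between astrocytes and BV-2 lost its call without any of 11 libraries, and that of Vcan between Neuro-2A and BV-2 without BV-2 mix replicate 2 (−0.82, adjusted p = 0.0795).

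Chains of one trimer moved apart. The ratio of Col4a1 to Col4a2, taken within each library after the values had been seen, was 0.404, 0.401 and 0.409 in the mix libraries of Neuro-2A, against 0.650, 0.590 and 0.580 in its control libraries. In astrocytes it was 1.54, 1.6 and 1.54 in the mix libraries, against 2.58, 2.77 and 2.62 in the control libraries. Thus the ratio was lower in all 3 mix libraries of each cell type, while astrocytes held more Col4a1 and Neuro-2A more Col4a2. The ratio of Col1a1 to Col1a2 in astrocytes was 3.38, 3.24 and 3.34 with the mix and 2.77, 2.63 and 2.78 with the control mimic.

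The ratio of Lamc1 to Lamb2, a γ and a β chain that share trimers, was 5.17, 3.33 and 3.58 in mix and 10.8, 6.65 and 6.14 in control libraries of Neuro-2A. In astrocytes it was 0.494, 0.487 and 0.486 in mix and 0.809, 0.750 and 0.749 in control libraries. None of the 5 pairs of arms overlapped, and an exact permutation test, two-sided, gave p = 0.1 for each, the smallest that 3 libraries against 3 allow. All of these ratios were chosen after the values had been seen, so the lack of overlap and the p are a description and no support. The permutation also left the libraries of the same number unpaired. A ratio shows that the 2 genes changed unequally, and it is free of the scaling between libraries.

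**Figure D4:**
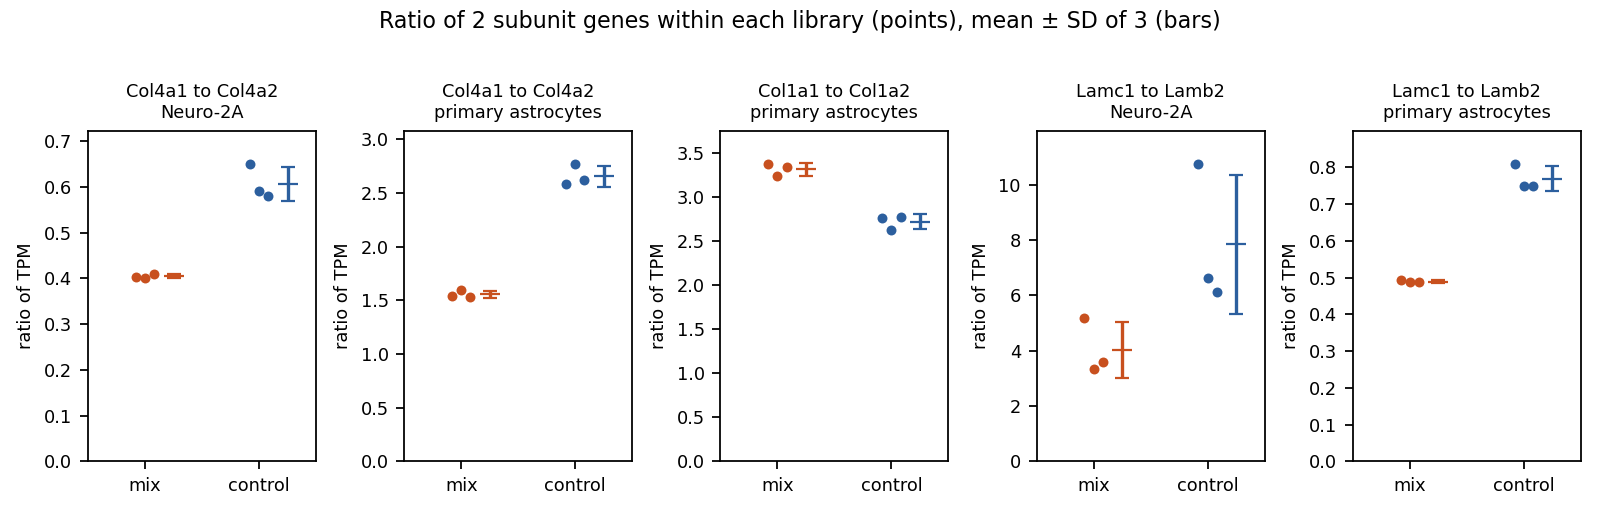
Ratio of the TPM of 2 subunit genes within each library (points) with mean ± SD of 3 libraries (bars), mix left of control, on axes from 0. The Col4a1 to Col4a2 ratio is lower with the mix in Neuro-2A and astrocytes, the Col1a1 to Col1a2 ratio higher in astrocytes, and the Lamc1 to Lamb2 ratio lower in both.

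Seed sites were set beside the changes as a description. In the longest annotated 3′ UTR of each gene, a 7mer-m8 or 8mer site of miR-199a-3p or miR-99b-3p was found in 4 of the 37 genes (10.8%), beside 9.24% of 20895 genes with a UTR and 10.5% of those tested in astrocytes; 0 were 8mers (ACTACTGA or CGAGCTTA, sense strand, beside 2.59% of genes). The 4 were Fn1, Nid2 and Lox with miR-199a-3p sites and Loxl1 with a miR-99b-3p site. Of these Nid2 fell, Loxl1 rose, and Fn1 and Lox were not called in astrocytes. Counting 7mer-A1 sites as well, 9 genes held a site (24.3%, beside 18.5% of all genes and 21.1% of those tested in astrocytes). The genes added were Adam9, Lama4, Lamc1, Ncan and Timp3. Of these Adam9, Lamc1 and Ncan fell, Timp3 rose and Lama4 was not called in astrocytes. The median UTR was 1085 bases for the 37 genes, 968 for all genes and 1197 for those tested in astrocytes. No such site was found for Col4a1, for Adam12 and Col18a1, or for any fibrillar collagen, Col11a1 among them. This says only that these letters were not in these UTRs.

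Other genes of the matrix, 178 in 7 lists that were also chosen with earlier results of these data known, were set beside them. In Neuro-2A 20 of 113 tested fell and 1 rose (7.88% and 5.01% of all genes), in astrocytes 48 of 165 fell and 40 rose (20.6% and 19.7% of all genes), and in BV-2 8 of 70 fell and 2 rose (5.41% and 4.61% of all genes). The counts of single lists below are to be read against these shares. Among the enzymes and chaperones that process collagen in astrocytes, 10 of 27 rose and 9 fell. Fkbp10, a prolyl isomerase that folds collagen, stood at 88.3, 85.1 and 87.3 TPM in the mix libraries, against 40.9, 38.2 and 37.2 TPM in the control libraries (1.10, SE 0.0428, adjusted p = 2.19e-09), and Crtap, a part of the prolyl 3-hydroxylase complex, was at 102 ± 4.09 TPM in mix libraries, against 58.8 ± 2.79 TPM in control libraries (0.74). The lysyl hydroxylase Plod1 fell (38.8 ± 1.52 TPM in mix libraries, against 49.3 ± 0.513 TPM in control libraries, −0.41). In Neuro-2A Fkbp10 was the only matrix gene of the 113 to rise (27.8 ± 3 TPM in mix libraries, against 15.9 ± 1.79 TPM in control libraries, 0.82), while Plod1 (−0.71) and the collagen galactosyltransferase Colgalt1 (−0.49) fell.

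Of the other collagens 7 of 24 rose and 5 fell in astrocytes. The largest of the named rises was that of Col16a1, a fibril-associated collagen, at 48.2 ± 0.391 TPM in mix libraries, against 21.6 ± 0.844 TPM in control libraries (1.10, SE 0.0383, adjusted p = 1.07e-09), followed by Col8a1 (0.48) and Col12a1 (0.23). Of the other laminins and linkers 4 of 15 fell and 3 rose in astrocytes, near the 20.6% and 19.7% of all genes; Fras1, a basement membrane protein (0.44), and the guidance cue Ntn1 (0.22) were among the higher ones. In Neuro-2A 4 of 7 fell and 0 rose (the same by unadjusted p and by DESeq2), with Dag1, the dystroglycan that anchors laminin, at 50.2 ± 0.606 TPM in mix libraries, against 61.3 ± 2.62 TPM in control libraries (−0.27), and the peroxidase Pxdn that crosslinks type IV collagen (−0.24).

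Of the receptors that bind this matrix 11 of 20 fell and 2 rose in astrocytes, beside 20.6% and 19.7% of all genes. The integrin genes Itga3, an α chain of laminin receptors, and Itga1, an α chain of collagen receptors, changed by −2.08 ± 0.0446 and −0.59 ± 0.0398, and Itgb8 by −1.36 ± 0.041 (SE). In Neuro-2A 3 of 16 fell and 0 rose, beside 7.88% and 5.01% of all genes (7 and 0 at an unadjusted p under 0.05, 5 and 0 by DESeq2): Itga3 (−0.88), the laminin-binding Itga6 at 75.5 ± 8.91 TPM in mix libraries, against 112 ± 7.49 TPM in control libraries (−0.55), and the collagen-binding kinase Ddr1 (−0.37). In BV-2 1 of 14 fell, beside 5.41% of all genes, the fibronectin-binding Itga5 (173 ± 3.9 TPM in mix libraries, against 202 ± 14.8 TPM in control libraries, −0.29).

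**Figure D5:**
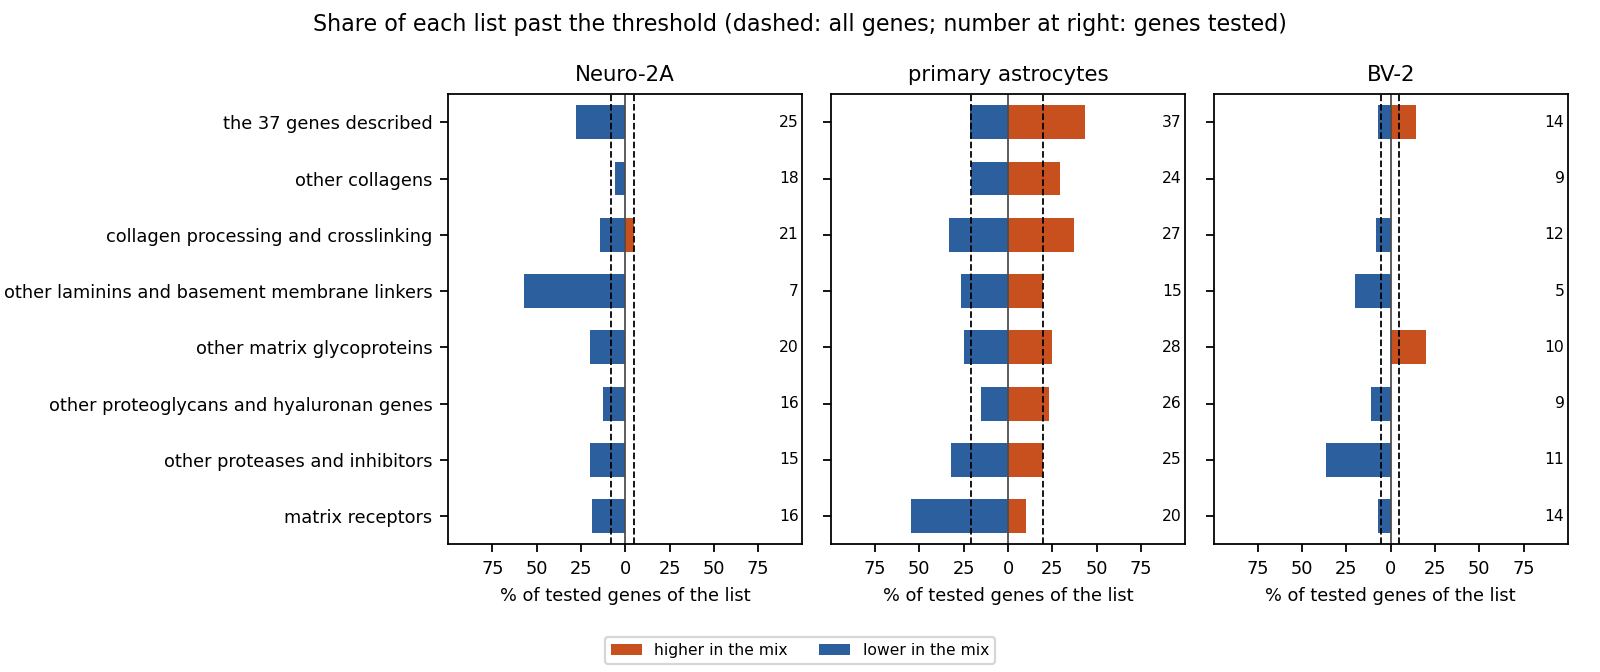
Percent of the tested genes of each list that were higher (orange, to the right) or lower (blue, to the left) with the mix at an adjusted p under 0.05, with the number tested at the right of each panel and dashed lines at the percent of all tested genes. Of the 37 genes 7 of the 25 tested were lower in Neuro-2A, beside 7.88% of all genes, and 16 of 37 were higher in astrocytes, beside 19.7%.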

How the data were processed

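Poly(A) RNA of 18 libraries was made into libraries with a directional kit, per the labels' protocols. The submitters' processing notes name STAR 2.7.10b, mm10 and Trimmomatic 0.39 but give them no role. What tool counted the reads, whether it used strand and which gene models it used is not stated there. The authors deposited expected counts, which are estimated counts per gene, since 35.5% to 42.1% of genes in a library were not whole (tolerance 0.001). They also deposited log2 TPM, in which a TPM of 1 or less was set to 0; within a library TPM was the count over gene length and a constant.

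Counts were rounded and tested with edgeR 4.0.16 in R 4.3.3 (filterByExpr with a minimum count of 10, TMM, glmQLFit and glmQLFTest), the whole table at a time: 6 libraries per cell type for the mix, all 18 for differences between cell types, and the 9 control libraries for levels. Low counts limit the precision. SE is the log2 fold change over the root of F. Alternatives were DESeq2 1.42.0, limma 3.58.1 on log2(TPM + 1), RLE scaling, no filter, a fit of all 18 libraries, a replicate block and leaving out libraries. Shares of all genes are given for the main fits and, where stated, the replicate block. Counts from other fits or at an unadjusted p have no such share beside them and do not set the genes apart from all genes. Replicates differed beyond counting noise (chi-square over its degrees of freedom 1.55 to 19.29), so none was counted as a repeat of another.

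Libraries of the same number deviated together from their group means by 0.771, 0.655 and 0.481 (Pearson, across genes) in Neuro-2A and 0.282, 0.194 and 0.252 in astrocytes, so the numbers, which the titles give, were taken to pair them. The sample labels also carry a second number that matches across the arms in the same way in all 3 cell types. What that number marks is not stated. The main fits left the pairing out. In Neuro-2A number 1 stood apart in both arms, which also lets numbers 2 and 3 correlate across arms (0.397 and 0.271).

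The 37 genes and the other gene lists were chosen with earlier results of these data known. Values in every library are given for up to 8 called genes per cell type with the largest change and at least 5 TPM, the 3 most abundant, and up to 3 per pair of cell types with the smallest interaction p; of the other matrix genes, up to 3 per list and cell type with the smallest adjusted p are named. Sites were matched to 3′ UTRs of GENCODE M21 (mm10).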

Additional observations from a re-analysis of the deposited data

Results flagged for a closer look

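The effect of the mix differed between cell types, by an interaction contrast of edgeR's quasi-likelihood test, for the genes below; each value is the log2 fold change in the first cell type minus that in the second.

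Between astrocytes and Neuro-2A, Adam12 differed by 0.89 ± 0.0957 (SE, adjusted p = 0.000119), with 0.56 in astrocytes and −0.32 in Neuro-2A. Col18a1 differed by 0.88 ± 0.119 (SE, adjusted p = 0.000343), with 0.51 in astrocytes and −0.36 in Neuro-2A, where it was low (2.81 ± 0.265 TPM in mix libraries, against 3.66 ± 0.494 TPM in control libraries). Adam9 differed by 0.56 ± 0.0845 (SE, adjusted p = 0.000869), with −0.39 in astrocytes and −0.94 in Neuro-2A.

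Between astrocytes and BV-2, Lamc1 differed by −0.54 ± 0.0818 (SE, adjusted p = 0.000461), with −0.70 in astrocytes and −0.15 in BV-2. Col18a1 differed by 1.24 ± 0.197 (SE, adjusted p = 0.000683), but it was at the floor in BV-2. Adam9 differed by −0.29 ± 0.0852 (SE, adjusted p = 0.0458), a call that was lost in 11 of 17 alternatives, each of them leaving out 1 library (adjusted p up to 0.115 without BV-2 mix replicate 3).

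Between Neuro-2A and BV-2, Adam9 differed by −0.85 ± 0.0853 (SE, adjusted p = 2.08e-05) and Lamc1 by −0.72 ± 0.0821 (SE, adjusted p = 8.38e-05), both with a fall in Neuro-2A and no call in BV-2. Vcan differed by −1.01 ± 0.222 (SE, adjusted p = 0.0169); it was at the floor in BV-2, with a mean of 41 counts in mix and 24.7 in control libraries, and lost its call without BV-2 mix replicate 2 (−0.82, adjusted p = 0.0795) and in a fit of the 12 libraries of the pair (−1.01, adjusted p = 0.0559).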

How the results depend on the processing

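For the 26 called changes and differences followed through every alternative none reversed, and of their 374 alternative values 334 kept their side of the threshold and 40 lost it. Among genes that were not called, some changed sign: in astrocytes by limma on TPM Agrn, Lamb2 and Postn to 0.01 each and Sparc and Col6a1 to 0.06, of which Col6a1 was then called (adjusted p = 0.00629), and in BV-2 Col4a2 to 0.01. In Neuro-2A the count of 7 genes became 14 with the replicate block, 4 by limma on log2(TPM + 1) and 3 to 7 without single libraries. The astrocyte count of 24 became 15 in a fit of all 18 libraries and 22 to 25 without single libraries. The BV-2 count of 3 became 0 to 5 without single libraries. Astrocyte against Neuro-2A effects differed for 12 genes with the replicate block in place of 7, and for 6 to 8 without single libraries. Astrocyte against BV-2 effects differed for 5 with the block in place of 3, and for 2 to 5 without single libraries. Neuro-2A against BV-2 effects differed for 2 in place of 4 in a fit of the 12 libraries of the pair, which tested fewer genes, and for 3 to 4 without single libraries. The replicate block changed no call beyond these and those named in the report. In BV-2, where deviations of libraries of the same number correlated by −0.024, 0.226 and −0.031, the block left 3 calls. With the numbers 2 and 3 alone, chosen after seeing the data, 22 astrocyte and 2 BV-2 genes were called, and Lamb1 (−0.05) and Sparc (0.01) changed sign in astrocytes. Levels differed for 36 to 37, 37 and 24 to 27 genes without single libraries. Genes with a site numbered 4, or 0 with 8mers only and 9 with 7mer-A1 sites included. The cause of these shifts was not tested, beyond the larger set of sites and the smaller sets of libraries.

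Depth limits the genes at the floor, 15 in Neuro-2A and 32 in BV-2, of which 12 in Neuro-2A were too low to test and 9 in BV-2 were tested. Fold changes of genes near the floor rest on few counts. Strand use in counting is not given, so Col18a1 and Nid2 may share reads with their neighbours. In Neuro-2A Slc19a1 held a mean of 2373 counts in mix and 2448 in control libraries, against 156 and 186 for Col18a1. In BV-2 Slc19a1 held 1142 and 898, against 28.2 and 39.9. In astrocytes Col18a1 was the higher, with 3711 and 2791 against 188 and 219 for Slc19a1. The part of shared reads in the Col18a1 differences was not tested.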

Other observations

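Matrix genes outside the 37 also changed in ways not yet described. The hyaluronan receptor gene Cd44 fell in astrocytes to 135 ± 4.21 TPM in mix libraries, against 228 ± 4.46 TPM in control libraries (−0.82, SE 0.0328, adjusted p = 2.71e-09 by edgeR) and in BV-2 to 129 ± 3.02 TPM in mix libraries, against 197 ± 9.66 TPM in control libraries (−0.68, SE 0.048, adjusted p = 0.000114 by edgeR). In astrocytes the latent TGF-β binding protein Ltbp1 rose to 51.4 ± 1.91 TPM in mix libraries, against 23.5 ± 0.449 TPM in control libraries (1.06), while the thrombospondins Thbs1 at 173 ± 14.3 TPM in mix libraries, against 233 ± 8.08 TPM in control libraries (−0.49) and Thbs2 (−0.48) fell. In BV-2 Thbs1 rose to a mean of 89.9 counts in mix libraries, against 33.5 counts in control libraries, which were all at the floor of 1 TPM, and Thbs3 rose by 0.65. In Neuro-2A the microfibril gene Mfap2 fell to 126 ± 6.78 TPM in mix libraries, against 175 ± 10.1 TPM in control libraries (−0.45), as did Emilin1 (−0.42) and Ltbp4 (−0.31). The leucine-rich proteoglycan gene Fmod rose in astrocytes (0.23), as did the glypican Gpc1 (0.16), and the syndecan Sdc3 fell in Neuro-2A (−0.43).

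Among other proteases, the sheddase gene Adam10 fell in each cell type, with log2 fold changes of −0.83 in Neuro-2A, −0.74 in astrocytes and −0.40 in BV-2. Reck, a membrane-anchored inhibitor of metalloproteases, rose in astrocytes to 29.9 ± 0.686 TPM in mix libraries, against 15.2 ± 1.26 TPM in control libraries (0.92), and the serpin Serpine2 fell (−0.32). In BV-2 the urokinase gene Plau fell to 501 ± 22.1 TPM in mix libraries, against 662 ± 45.5 TPM in control libraries (−0.47), and Mmp9 fell (−0.76). In Neuro-2A the aggrecanase gene Adamts4 (−0.49) and Mmp24 (−0.63) fell.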
